A study of Homo sapiens with 6 samples.

Results

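The 47 genes described here are type I interferon-stimulated genes, a set written down as a list of symbols and found by exact match of the symbol in the deposited count tables. All 47 were among the 41471 symbols of the CDK16 knockdown table, and 46 were among the 34157 symbols of the rebastinib (Reb) table, where CMPK2 was not listed. All samples were MDA-MB-231, a human triple-negative breast cancer (TNBC) cell line, grown in DMEM with FBS and profiled by mRNA sequencing. In the knockdown experiment stable lines were made by lentiviral infection and FACS sorting, and carried either the hairpin CDK16-sh1, the hairpin CDK16-sh2 or a scramble shRNA as the control. In the Reb experiment the cells received Reb, a kinase inhibitor, at 1 μM or 5 μM, or DMSO as the control, for 48 h. Each of the 6 conditions had 1 library, so no difference has a replicate check, and words such as higher and lower refer to single libraries.

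Type I interferons are secreted proteins that bind the IFNAR1 and IFNAR2 receptor on the cell surface, where the kinases JAK1 and TYK2 phosphorylate STAT proteins. STAT2 and IRF9 are parts of the transcription factor that then binds the interferon-stimulated response element (ISRE) in the promoters of target genes. The products of these genes sense foreign RNA, block viral entry and translation, and attach the ubiquitin-like protein ISG15 to other proteins. Many of them are also transcribed at a low level without added interferon, and tumour cell lines differ in that level.

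The promoters of the members were searched for the ISRE core, written as GAAA, any 2 bases and GAAA and sought on both strands, in RefSeq windows from 250 bases before to 50 bases after the transcription start (GRCh38.p14). A window was found for 38 of the 47 members, and 24 of these (63.2%) held the core, against 4.38% of the 27305 genes with a window. The sequence TTCNNNGAA, which reads the same on both strands in its fixed letters and to which STAT dimers bind, was in the windows of 9 members (23.7%) and of 9.38% of all genes, and in some promoters, such as that of BST2, it overlapped the ISRE core. The following stretches show the core, in capitals, with 10 bases on each side, for 10 members among those whose levels stood furthest apart between libraries in the comparisons below. They are written 5′ to 3′ on the strand of the gene.
ISG15, chr1:1013380-1013409, gene on the plus strand: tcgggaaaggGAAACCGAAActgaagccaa
IFIT1, chr10:89392510-89392539, gene on the plus strand: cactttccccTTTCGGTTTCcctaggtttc
IFITM3, chr11:320876-320905, gene on the minus strand: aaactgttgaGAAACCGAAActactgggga
GBP1, chr1:89065316-89065345, gene on the minus strand: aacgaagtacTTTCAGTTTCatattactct
BST2, chr19:17405741-17405770, gene on the minus strand: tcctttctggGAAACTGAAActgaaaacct
IFI27, chr14:94110618-94110647, gene on the plus strand: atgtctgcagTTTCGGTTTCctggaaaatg
SAMD9, chr7:93118096-93118125, gene on the minus strand: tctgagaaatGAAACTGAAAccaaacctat
PARP14, chr3:122680800-122680829, gene on the plus strand: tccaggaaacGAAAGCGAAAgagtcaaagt
PARP9, chr3:122564322-122564351, gene on the minus strand: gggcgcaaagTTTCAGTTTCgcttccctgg
DTX3L, chr3:122564322-122564351, gene on the plus strand: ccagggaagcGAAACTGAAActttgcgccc
PARP9 and DTX3L are transcribed in opposite directions from neighbouring starts, and the last 2 sequences are the same 30 bases read on the 2 strands. A match is a description of the letters and does not show that a factor was bound. STAT2, IRF9, IRF1, DDX58, ADAR, UBE2L6, HERC6, TRIM25, IFI35, SAMD9L, XAF1, SP100, OAS1 and CMPK2 had a window without the core. At 5 μM Reb the members with a core had a median log2 fold change of −0.62 (n = 21) and those without it −1.76 (n = 12), and for DMSO against scramble the medians were −1.07 (n = 22) and −0.73 (n = 12).

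The total count was 25838443 to 31955119 in the knockdown libraries and 37655548 to 50303269 in the Reb libraries. Levels are given as counts scaled by depth and edgeR's TMM factors (CPM), and genes whose CPM averaged at least 1 over the libraries of the experiment were compared. The interval printed after a log2 fold change is its 95% Clopper-Pearson interval, which covers counting error only. CDK16, the target of the hairpins, had 3223, 1360 and 846 counts in scramble, CDK16-sh1 and CDK16-sh2, or 118, 41.2 and 33.5 CPM. Of 3 genes taken to mark mesenchymal-like cells, VIM, CD44 and SPARC, the first 2 had their lowest level at 267 CPM (CD44 at 1 μM Reb). Of 6 luminal markers, ESR1, PGR and CDH1 were at 53 counts or fewer in every library, while KRT8 was at 642 to 1338 CPM, ERBB2 at 36.8 to 60.1 CPM and EPCAM at 3.79 to 15.1 CPM. SPARC, a matrix protein gene and the remaining mesenchymal-like marker, separated the experiments and was nearly absent from the knockdown libraries. It had 14, 15 and 1 counts there and 1925, 1970 and 283 counts with DMSO, 1 μM and 5 μM Reb. Of 7 leukocyte markers, the summed level was 0.712 to 1.97 CPM in the knockdown libraries, and 1.44, 4.15 and 1.40 CPM with DMSO, 1 μM and 5 μM Reb. CD3E was at 0 except with 1 μM Reb (8 counts), where LYZ gave 130 of the 246 leukocyte marker counts. The endothelial genes PECAM1 and CDH5 summed to 0.831 to 2.73 CPM in the knockdown libraries and to 4.73, 1.30 and 0.555 CPM with DMSO, 1 μM and 5 μM Reb. Mitochondrial transcripts took 11.3%, 10.4% and 16.2% of the counts with scramble, CDK16-sh1 and CDK16-sh2. Their share was 7.19%, 8.30% and 16.4% with DMSO, 1 μM and 5 μM Reb. The TMM factor was 0.919 with CDK16-sh2 and 0.718 at 5 μM Reb, and above 1 in the other libraries. CDK16-sh2 and 5 μM Reb thus stood apart from the other libraries of their experiments in both measures. The part of this difference in the levels of the members was not tested. In bulk RNA, fewer cells that express a gene and less RNA per cell cannot be told apart.

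The members covered a wide range of levels in the control libraries. Per length of the gene, BST2, the membrane protein tetherin, was highest in the scramble library at 212 RPKM (reads per kilobase of exon, scaled by library total), followed by LGALS3BP, a secreted glycoprotein, at 119.7, IFITM3 at 97.2, IFIT3 at 60.4 and ISG15 at 37.3. With DMSO the order was LGALS3BP at 120.0 RPKM, IFITM3 at 29.8, IFIT3 at 19.5, the RNA-editing enzyme ADAR at 18.1 and BST2 at 17.7. At the other end, CMPK2 had 0 counts in all 3 knockdown libraries, which allows up to 3 counts in each. RSAD2, which encodes the antiviral enzyme viperin and lies next to CMPK2, had 7, 12 and 1 counts there and 0, 8 and 2 counts with DMSO, 1 μM and 5 μM Reb. OAS1 had at most 34 counts and IFI44L at most 26 in any library. These 4 genes did not reach a mean of 1 CPM in either experiment, which left 43 members for the knockdown comparisons. In the Reb experiment DHX58, OAS2, USP18 and IFI27 were below it too, which left 39.

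**Figure D1:**
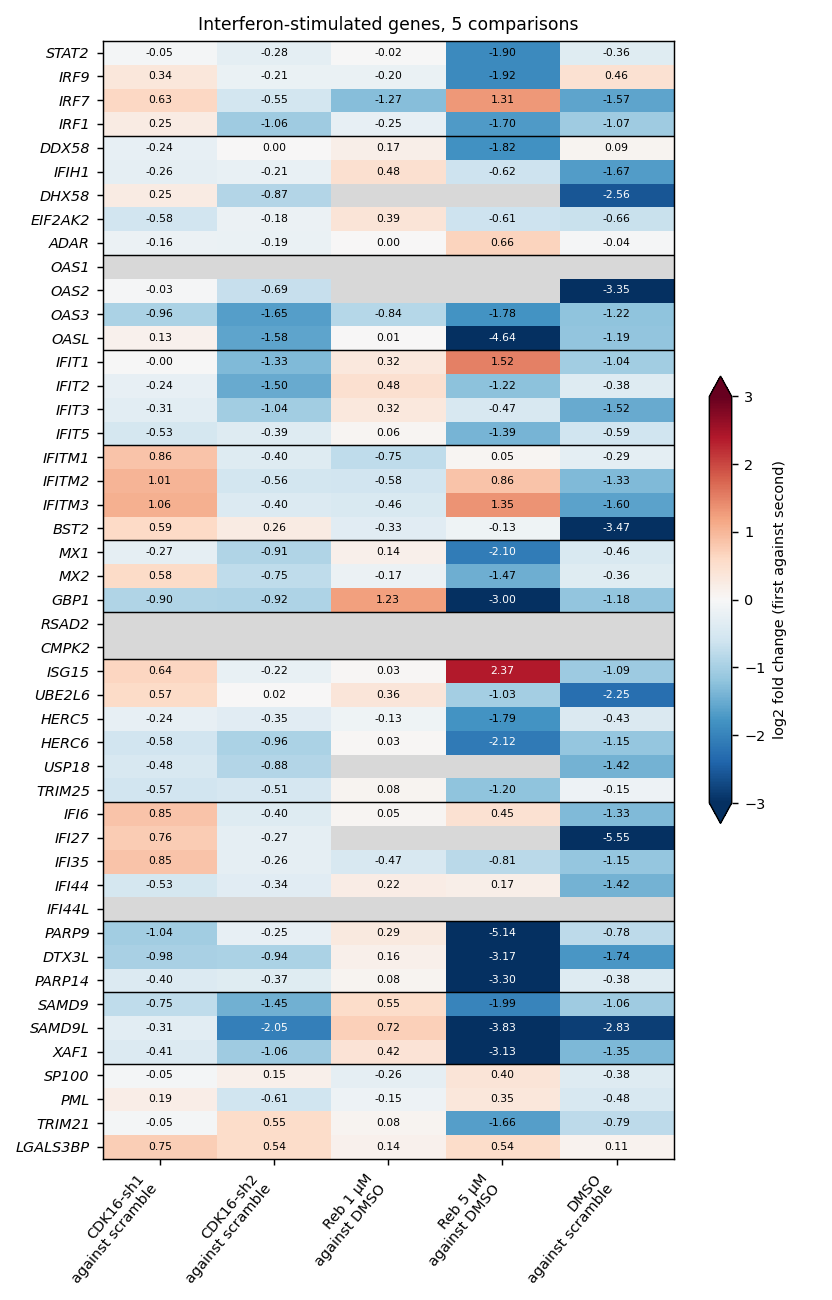
Log2 fold change of the 47 members (rows, grouped by role between the black lines) in 5 comparisons of single libraries (columns). Red is higher and blue lower in the library named first, colours end at 3 and −3, and grey marks members below a mean of 1 CPM or not analysed. The columns for 5 μM Reb and for DMSO against scramble hold most of the dark blue cells, and ISG15, IFIT1, IFITM3 and IRF7 are red at 5 μM.

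Whether loss of CDK16 moved these genes was addressed by setting each hairpin library against the scramble library. In CDK16-sh2, 9 of 43 members were at least 2-fold lower and 0 were higher, against 7.62% and 2.2% of the 15295 genes tested, and 1 was at least 4-fold lower, against 1.09%. The median log2 fold change of the members was −0.40, against 0.02 for all genes. Below 0 were 37 of the 43, against 48.6% of all genes. In CDK16-sh1 the members were spread to both sides, with 2 at least 2-fold higher (4.33% of all genes) and 1 lower (6.86% of all genes), and with 0 at least 4-fold lower (0.438% of all genes). Their median there was −0.05, against a median near 0 for all genes. Above 0 were 17 members and below it 26, where 50.1% of all genes were below. That median took the other sign, 0.01, once a trend on gene length and mean expression had been removed. The median of all genes was then 0.03, so the members' median was still below it. Scaling CDK16-sh2 by library totals moved the median of all genes to −0.18 and that of the members to −0.60, with 15 members at least 2-fold lower (11.1% of all genes).

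The IFIT genes, whose products bind viral RNA and hold back its translation, lie side by side on chromosome 10. IFIT1 was at 26.3 CPM with scramble, 26.2 with CDK16-sh1 and 10.4 with CDK16-sh2, and its log2 fold change in CDK16-sh2 was −1.33 (interval −1.54 to −1.13). For IFIT2 the levels were 49.9, 42.3 and 17.6 CPM in the same order, with −1.50 (interval −1.66 to −1.35) in CDK16-sh2. IFIT3, the most abundant of them, was at 151, 122 and 73.5 CPM, which gave −1.04 (interval −1.12 to −0.96). Scramble and CDK16-sh1 were thus the 2 high libraries and CDK16-sh2 the low one for these genes, while IFIT5, at 24.2, 16.8 and 18.5 CPM, was lower with both hairpins (−0.53 and −0.39). IFIT2 shares 8.68% of its exon bases with another gene on the same strand, so its counts are less certain.

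SAMD9L and SAMD9 are neighbours on chromosome 7 and encode related restriction factors that act on translation. SAMD9L (chromosome 7, 93130055 to 93148369, GRCh38) stood furthest from scramble of the 43 members in CDK16-sh2, at 31.7 CPM with scramble, 25.6 with CDK16-sh1 and 7.59 with CDK16-sh2, a log2 fold change of −2.05 (interval −2.29 to −1.83). SAMD9 was at 34.5, 20.4 and 12.6 CPM, which gave −0.75 (interval −0.90 to −0.61) for the first hairpin and −1.45 (interval −1.64 to −1.27) for the second. XAF1, a pro-apoptotic gene, was at 8.92, 6.70 and 4.23 CPM, and in CDK16-sh2 its value was −1.06 (interval −1.42 to −0.74). All 3 genes of this group were lowest in CDK16-sh2, and opposite-strand exons cover 38.3% of XAF1.

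Of the oligoadenylate synthetase family, whose products make the second messenger that switches on RNase L, OAS3 was lower in both hairpin libraries. Its level was 36.1 CPM with scramble, 18.6 with CDK16-sh1 and 11.5 with CDK16-sh2, which gave −0.96 (interval −1.11 to −0.81) for CDK16-sh1 and −1.65 (interval −1.85 to −1.47) for CDK16-sh2 on the log2 scale. OASL, a family member without synthetase activity, was at 10.2, 11.2 and 3.36 CPM, near scramble in CDK16-sh1 at 0.13 (interval −0.10 to 0.36) and lower in CDK16-sh2 at −1.58 (interval −1.97 to −1.25). OAS2 was at 14.3, 13.9 and 8.78 CPM, with −0.03 and −0.69.

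Among the transcription factors, IRF1 was at 56.8 CPM with scramble, 67.4 with CDK16-sh1 and 27.2 with CDK16-sh2, higher than scramble in CDK16-sh1 at 0.25 (interval 0.15 to 0.34) and lower in CDK16-sh2 at −1.06 (interval −1.20 to −0.93). IRF7, which drives the amplification of interferon production, was at 9.07, 14.1 and 6.17 CPM, with 0.63 and −0.55. STAT2 and IRF9 were at −0.05 and 0.34 in CDK16-sh1 and at −0.28 and −0.21 in CDK16-sh2. Of the exon bases of IRF9, 48.4% are shared with another gene on its strand.

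The membrane proteins gave the members past 2-fold in the upward direction. IFITM3, which blocks the fusion of viruses with the cell, was at 124 CPM with scramble, 260.2 with CDK16-sh1 and 94.0 with CDK16-sh2, a log2 fold change of 1.06 (interval 1.01 to 1.12) for CDK16-sh1, and of −0.40 (interval −0.48 to −0.33) for the second hairpin. Its close paralog IFITM2 was at 41.6, 84.0 and 28.3 CPM, with 1.01 (interval 0.91 to 1.11) and −0.56 (interval −0.70 to −0.42). IFITM1 was on the same sides of scramble, at 0.86 and −0.40. These 3 genes are closely similar in sequence, and IFITM1 and IFITM2 share 351 exon bases, so reads may have been split or lost between them. BST2, at 225, 339 and 269 CPM, was higher with both hairpins, at 0.59 (interval 0.54 to 0.63) and 0.26 (interval 0.21 to 0.31).

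ISG15 was at 33.4 CPM with scramble, 52.1 with CDK16-sh1 and 28.7 with CDK16-sh2, with 0.64 (interval 0.53 to 0.76) and −0.22 (interval −0.36 to −0.08). UBE2L6, the enzyme that passes ISG15 on, was at 31.1, 46.3 and 31.4 CPM. The ligases HERC5 and HERC6 had log2 fold changes of −0.24 and −0.58 in CDK16-sh1, and −0.35 and −0.96 in CDK16-sh2. USP18, which removes ISG15 and dampens the receptor, had 65, 56 and 32 counts, and TRIM25, a ligase that acts on the RNA sensor DDX58, had −0.57 and −0.51. None of these 6 genes was past 2-fold with either hairpin.

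PARP9, an ADP-ribosyltransferase that works with the ubiquitin ligase DTX3L, was the 1 member past 2-fold in the downward direction in CDK16-sh1. It was at 13.6 CPM with scramble, 6.55 with CDK16-sh1 and 11.4 with CDK16-sh2, giving −1.04 (interval −1.30 to −0.80) and −0.25 (interval −0.48 to −0.02) on the log2 scale. DTX3L was at 27.8, 14.1 and 14.4 CPM and PARP14 at 28.6, 21.7 and 22.1 CPM. The values of DTX3L were −0.98 and −0.94, and those of PARP14 were −0.40 and −0.37.

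Other members stayed under 2-fold with both hairpins. The large GTPases MX1 and MX2 had −0.27 and 0.58 in CDK16-sh1 and −0.91 and −0.75 in CDK16-sh2. The guanylate-binding protein gene GBP1, at 52.7, 28.3 and 27.8 CPM, had −0.90 and −0.92. The sensors DDX58, IFIH1 and DHX58 had log2 fold changes of −0.26 to 0.25 in CDK16-sh1 and −0.87 to 0.00 in CDK16-sh2, and the translation-blocking kinase EIF2AK2 had −0.58 and −0.18. IFI6, IFI27 and IFI35 were higher in CDK16-sh1, at 0.85, 0.76 and 0.85, and lower in CDK16-sh2, at −0.40, −0.27 and −0.26, while IFI44 was at −0.53 and −0.34. Of the nuclear body genes, SP100 had −0.05 and 0.15 and PML 0.19 and −0.61. LGALS3BP, at 407, 683 and 593 CPM, and TRIM21, a cytosolic antibody receptor at 35.6, 34.3 and 52.3 CPM, were among the 6 members above scramble in CDK16-sh2.

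Set directly against CDK16-sh1, CDK16-sh2 was at least 2-fold lower in 14 of 43 members and higher in 0. Of all genes, 8.68% and 6.53% were past these limits. CDK16-sh2 was at least 4-fold lower in 0 members (1.27% of all genes). The median log2 ratio of the members was −0.64, and the lowest values were −1.74 (interval −1.98 to −1.52) for SAMD9L, −1.71 (interval −2.09 to −1.39) for OASL and −1.57 (interval −1.69 to −1.45) for IFITM2. PARP9 was the highest, at 0.79 (interval 0.54 to 1.06). CDK16 itself was at 41.2 CPM with the first hairpin and 33.5 CPM with the second, from 1360 and 846 counts.

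**Figure D2:**
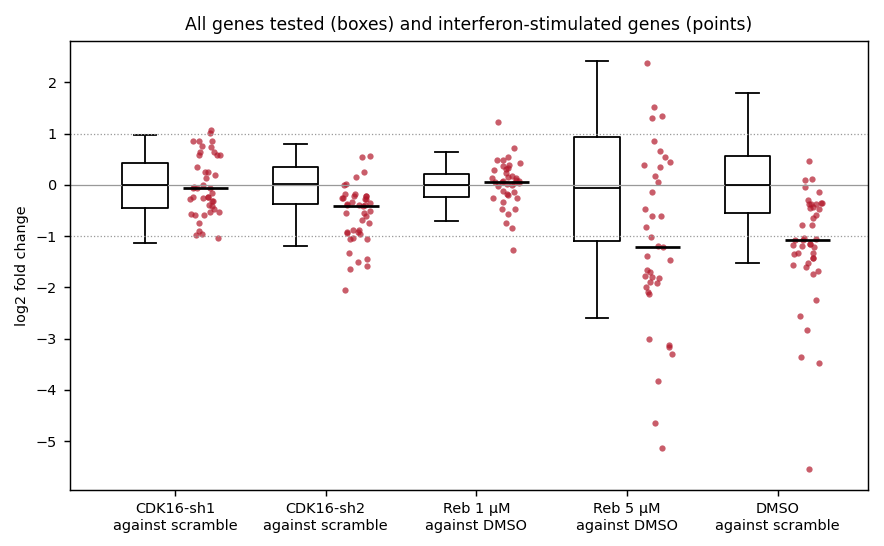
Log2 fold change in 5 comparisons of single libraries, for all genes tested (boxes from the lower to the upper quartile with the median, whiskers from the 5th to the 95th percentile) and for the members (points, with their median as a bar). Dotted lines mark 2-fold. The member median lies at −0.40 for CDK16-sh2, −1.22 for 5 μM Reb and −1.09 for DMSO against scramble, and near 0 for CDK16-sh1 and 1 μM Reb.

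At 1 μM Reb the members stayed close to DMSO. Of 39 members tested, 1 was at least 2-fold higher (1.28% of all genes) and 1 lower (1.92%), with 0 at least 4-fold lower (0.339%), and the median log2 fold change was 0.06, against 0.00 for all 15655 genes. GBP1 was the member past 2-fold upward, at 19.5 CPM with DMSO, 45.9 at 1 μM and 2.40 at 5 μM, a log2 fold change of 1.23 (interval 1.13 to 1.33). IRF7 was the one past it downward, with 148, 61 and 172 counts and a log2 fold change of −1.27 (interval −1.76 to −0.86) at 1 μM. GBP1 and IRF7 both stood on the other side of DMSO at 5 μM, as described next. SAMD9L, SAMD9 and XAF1 were above DMSO at 1 μM, at 0.72, 0.55 and 0.42, and the 3 IFITM genes below it, at −0.75, −0.58 and −0.46. OAS3 was also lower, at −0.84 (interval −1.02 to −0.68).

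At 5 μM Reb most members were lower than with DMSO and a few were higher. At least 2-fold lower were 22 of the 39 members and at least 2-fold higher 4, against 27.2% and 23.6% of all genes, and 9 members were at least 4-fold lower, against 10.1%. The median log2 fold change was −1.22, against −0.07 for all genes. Below 0 were 27 of the 39 members, against 51.7% of all genes. The scaling bears on these values. With scaling by totals, the median over all genes was −0.75 and that of the members −1.91, with 26 members at least 2-fold lower and 1 higher, where 43.4% and 11.7% of all genes were past these limits. The members' median lay −1.15 from that of all genes with TMM and −1.16 with totals. Of the 12 members above DMSO, 7 were below it under totals, and ISG15, IFIT1, IFITM3, IRF7 and IFITM2 remained above.

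PARP9 (chromosome 3, 122527924 to 122564577), DTX3L and PARP14, an ADP-ribosyltransferase gene close by on the same chromosome, were among the 9 members at least 4-fold lower at 5 μM. PARP9 was at 6.62 CPM with DMSO, 8.08 at 1 μM and 0.148 at 5 μM, from 386, 479 and 4 counts, a log2 fold change of −5.14 (interval −7.37 to −4.12). DTX3L was at 6.98 CPM with DMSO, 7.78 at 1 μM and 0.739 at 5 μM, with −3.17 (interval −3.97 to −2.59), and PARP14 at 18.6, 19.6 and 1.85 CPM, with −3.30 (interval −3.77 to −2.92). At 1 μM the same genes had log2 fold changes of 0.29, 0.16 and 0.08, so the 5 μM library was the low one of the 3.

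The same order of libraries held for SAMD9L, SAMD9 and XAF1. SAMD9L had 216, 363 and 6 counts, which gave −3.83 (interval −5.52 to −2.92) at 5 μM. XAF1 had 170, 232 and 8 counts, with −3.13 (interval −4.54 to −2.29). SAMD9 was at 13.9, 20.4 and 3.47 CPM, with −1.99 (interval −2.33 to −1.69). OASL had 219, 224 and 3 counts, so the 5 μM library was at the floor of 3 counts, and the interval of its log2 ratio was −7.37 to −3.52. OAS3 was at 13.1, 7.27 and 3.77 CPM, which gave −1.78 (interval −2.11 to −1.50).

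All 3 GTPase genes were lower at 5 μM. GBP1, at 2.40 CPM there against 19.5 with DMSO, had an interval of −3.41 to −2.66 for its log2 fold change, on the other side of 0 from its value at 1 μM. MX1 was at 12.5 CPM with DMSO, 13.7 at 1 μM and 2.88 at 5 μM, with −2.10 (interval −2.47 to −1.77), and MX2, at 88, 79 and 14 counts, had −1.47 (interval −2.47 to −0.72). STAT2, IRF9 and IRF1 were lower as well. STAT2 was at 13.0 CPM with DMSO, 12.8 at 1 μM and 3.44 at 5 μM, with −1.90 (interval −2.24 to −1.60), IRF9 was at 21.0, 18.3 and 5.54 CPM, with −1.92 (interval −2.18 to −1.68), and IRF1 was at 22.7, 19.1 and 6.99 CPM, with −1.70 (interval −1.93 to −1.48). The RNA sensor DDX58, also called RIG-I, was at 36.2, 40.6 and 10.2 CPM, with −1.82 (interval −2.01 to −1.64), while IFIH1 and EIF2AK2 were under 2-fold, at −0.62 and −0.61.

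Within the ISG15 system ISG15 was higher at 5 μM and 4 of the enzymes were lower. ISG15 was at 13.2 CPM with DMSO, 13.5 at 1 μM and 68.6 at 5 μM, from 772, 803 and 1857 counts, a log2 fold change of 2.37 (interval 2.25 to 2.50), the highest of the 39 tested members. UBE2L6 was at 5.47 CPM with DMSO, 7.02 at 1 μM and 2.66 at 5 μM, with −1.03 (interval −1.43 to −0.67), and HERC5, the main ISG15 ligase, was at 16.8, 15.3 and 4.81 CPM, with −1.79 (interval −2.08 to −1.54). HERC6 was at 4.65, 4.74 and 1.04 CPM and TRIM25 at 78.0, 82.5 and 34.0 CPM, with −2.12 and −1.20. USP18, below the filter, had 42, 64 and 32 counts or, scaled, 0.72, 1.08 and 1.18 CPM, so that with TMM it was on the same side of DMSO as ISG15 at 5 μM, at 0.68 (interval 0.01 to 1.41), and by library totals about level with DMSO. ISG15 shares 3.82% of its exon bases with a gene on the other strand, and under library totals its value was 1.68.

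The IFIT genes were divided too. IFIT1 was at 10.8 CPM with DMSO, 13.5 at 1 μM and 30.9 at 5 μM, with 1.52 (interval 1.37 to 1.67), so that the 5 μM library was the high one. IFIT2 was at 32.3, 45.0 and 13.8 CPM, with −1.22 (interval −1.39 to −1.06), and IFIT5 at 13.5, 14.1 and 5.14 CPM, with −1.39 (interval −1.67 to −1.13). IFIT3 was at 44.5, 55.5 and 32.0 CPM, with −0.47 (interval −0.59 to −0.36). The 4 genes lie within 1 stretch of chromosome 10, IFIT2 from 89283694 to 89309276 and IFIT5 from 89414586 to 89421001, and under library totals the value of IFIT1 was 0.83.

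IFITM3 was at 34.7 CPM with DMSO, 25.1 at 1 μM and 88.5 at 5 μM, with 1.35 (interval 1.27 to 1.44), and IFITM2 at 14.0, 9.35 and 25.4 CPM, with 0.86 (interval 0.72 to 1.01). A gene on the other strand covers 21.3% of the exon bases of IFITM3, and without the strand setting of the counting its reads cannot be told apart. IFITM1 and BST2 were near DMSO, at 0.05 (interval −0.26 to 0.36) and −0.13 (interval −0.30 to 0.03). IRF7 was at 2.54 CPM with DMSO, 1.03 at 1 μM and 6.36 at 5 μM, with 1.31 (interval 1.00 to 1.65), and was the 1 of the 4 transcription factor genes above DMSO. Members that were above DMSO by less than 2-fold with TMM and below it by library totals were ADAR (0.66 and −0.03), LGALS3BP (0.54 and −0.15), IFI6 (0.45 and −0.23), SP100 (0.40 and −0.29), PML (0.35 and −0.34), IFI44 (0.17 and −0.51) and IFITM1 (0.05 and −0.63). TRIM21 was at 17.4, 18.4 and 5.47 CPM, with −1.66, IFI35 had −0.81, and IFI27, below the filter, had 3, 11 and 20 counts.

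**Figure D3:**
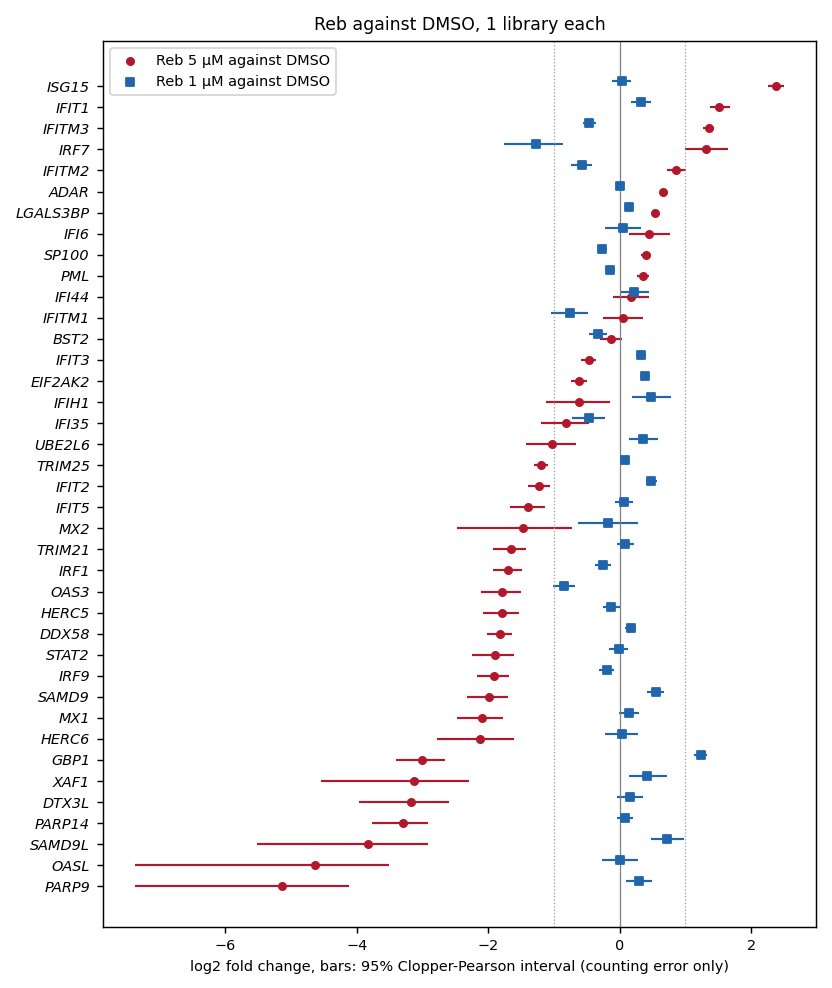
Log2 fold change of the 39 tested members at 5 μM Reb (red circles, sorted) and 1 μM Reb (blue squares) against DMSO, with 95% Clopper-Pearson intervals as bars and dotted lines at 2-fold. At 1 μM 2 members lie outside 2-fold, and at 5 μM the range runs from −5.14 for PARP9 to 2.37 for ISG15.

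Between the doses, 5 μM was at least 2-fold below 1 μM in 23 members and above it in 5, against 25.8% and 22.8% of all genes, and at least 4-fold below it in 10, against 9.13%, with a member median of −1.30. PARP9 had the lowest log2 ratio, −5.42 (interval −7.65 to −4.41), followed by OASL at −4.65 (interval −7.38 to −3.52), SAMD9L at −4.55 (interval −6.24 to −3.65) and GBP1 at −4.23 (interval −4.63 to −3.90). IRF7 had the highest, 2.58 (interval 2.20 to 3.07), with ISG15 at 2.34 (interval 2.22 to 2.46) and IFITM3 at 1.82 (interval 1.72 to 1.91).

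A test that needs no replicate of a single condition took both treated libraries as 1 group against the control. The difference between hairpins or doses then counted as spread. It was the quasi-likelihood test in edgeR, Benjamini-Hochberg adjusted over all genes (adjusted p-value of at most 0.05 and at least 2-fold). For the hairpins even CDK16, at 118 CPM with scramble and 41.2 and 33.5 CPM with the hairpins, was not called. A gene moved at 1 dose or by 1 hairpin alone adds to the spread. The test therefore cannot decide whether members moved in a single treated library. It called 0 of 43 members for the hairpins, where it called 0% of all genes, and 0 of 39 for Reb, against 0.0767% of all genes. The smallest adjusted p-value of a member was 1.00 in both fits, and 2 members, OAS3 and SAMD9, had an unadjusted p-value under 0.05 for the hairpins (both lower), with 0 for Reb. DESeq2's Wald test also called 0 and 0, with 1 and 0 members under an unadjusted 0.05. With log2(dose + 1) as a slope in the model, edgeR called 7 members, all lower, against 10.3% of all genes in either direction, from 1 library per dose.

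Most members were lower in the DMSO library than in the scramble library. DMSO was at least 2-fold below scramble in 25 of 43 members and above it in 0, against 12.3% and 13.1% of the 15785 genes tested, and at least 4-fold below it in 6, against 2.43%. IFI27, OAS2, DHX58 and USP18 were under a mean of 1 CPM in the Reb experiment and entered here through the knockdown libraries, where they were higher. Without them 21 of 39 members were at least 2-fold lower and 3 at least 4-fold lower, with a median of −1.06. The median log2 ratio of all 43 was −1.09, against 0.00 for all genes. Below 0 were 40 of 43, against 50% of all genes. With scaling by totals the median over all genes was −0.11 and that of the members −1.19, with 25 members again at least 2-fold lower (14.7% of all genes). The 2 libraries belong to separate experiments and differ in the scramble hairpin and in DMSO, and these differences cannot be told apart.

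IFI27, OAS2 and DHX58 passed the filter only through the knockdown libraries, where they were higher. Of the 39 members that passed it in both experiments, BST2 stood furthest apart. Of all 43 this was IFI27, a mitochondrial protein gene. IFI27 had 150, 309 and 115 counts in the knockdown libraries and 3, 11 and 20 counts in the Reb libraries. The interval of its log2 ratio of DMSO to scramble was −8.79 to −4.92, with the DMSO library at 3 counts. BST2 had 6139, 11184 and 6805 counts and 997, 803 and 422 counts, a log2 ratio of DMSO to scramble of −3.47 (interval −3.57 to −3.38). Every knockdown library was above every Reb library for both genes. OAS2 had 388, 459 and 222 counts and 66, 60 and 10 counts, with −3.35 (interval −3.81 to −3.03). UBE2L6 had a log2 ratio of −2.25 (interval −2.45 to −2.07), SAMD9L of −2.83 (interval −3.07 to −2.63) and the RNA sensor DHX58, with 112, 162 and 56 counts and 32, 22 and 10 counts, of −2.56 (interval −3.27 to −2.08).

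Smaller log2 ratios of DMSO to scramble were found for DTX3L at −1.74 (interval −1.92 to −1.57), IFIH1 at −1.67 (interval −1.98 to −1.41), IFITM3 at −1.60 (interval −1.68 to −1.52), IRF7 at −1.57 (interval −1.90 to −1.29) and IFIT3 at −1.52 (interval −1.59 to −1.45). IFIH1, a sensor of long RNA, had 286, 289 and 229 counts in the knockdown and 160, 227 and 48 counts in the Reb libraries. IFI6 (−1.33), IFI35 (−1.15) and IFI44 (−1.42) were also at least 2-fold lower with DMSO, from 311, 382 and 498 counts with scramble to 222, 309 and 334 with DMSO in a deeper library. The other 11 of the 25 members, USP18, XAF1, IFITM2, OAS3, OASL, GBP1, HERC6, ISG15, IRF1, SAMD9 and IFIT1, had log2 ratios from −1.42 to −1.04. Of the signalling genes, STAT2 was at −0.36 (interval −0.52 to −0.19), and IRF9 was the member furthest above 0, at 0.46 (interval 0.31 to 0.61). LGALS3BP and DDX58 were the other two members above 0, at 0.11 and 0.09, and ADAR was at −0.04. SPARC and the endothelial genes also differed between the same 2 libraries, with 14 and 1925 counts of SPARC, 44 and 154 of PECAM1 and 4 and 122 of CDH5 in scramble and DMSO, and their part in the result was not tested.

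Over the 6 libraries scaled together, DMSO and 1 μM Reb were both below all 3 knockdown libraries in 21 of 43 members, against 29.6% of all genes. Both were above them in 1 member, against 31.6%. Among the 21 were IFI27, OAS2 and DHX58, which entered through the knockdown libraries, where they were higher, so the filter favoured this order. These genes are also in the medians that follow. The difference between the experiments depended on the knockdown library taken. The member median of DMSO was −0.89 against CDK16-sh1 and −0.35 against CDK16-sh2, where those of all genes were 0.03 and 0.01. That of 1 μM Reb was −0.92, −0.64 and −0.18 against scramble, CDK16-sh1 and CDK16-sh2. The medians of all genes were 0.01, 0.05 and 0.02 there. These member medians were not recalculated without the genes that entered through the knockdown libraries.

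**Figure D4:**
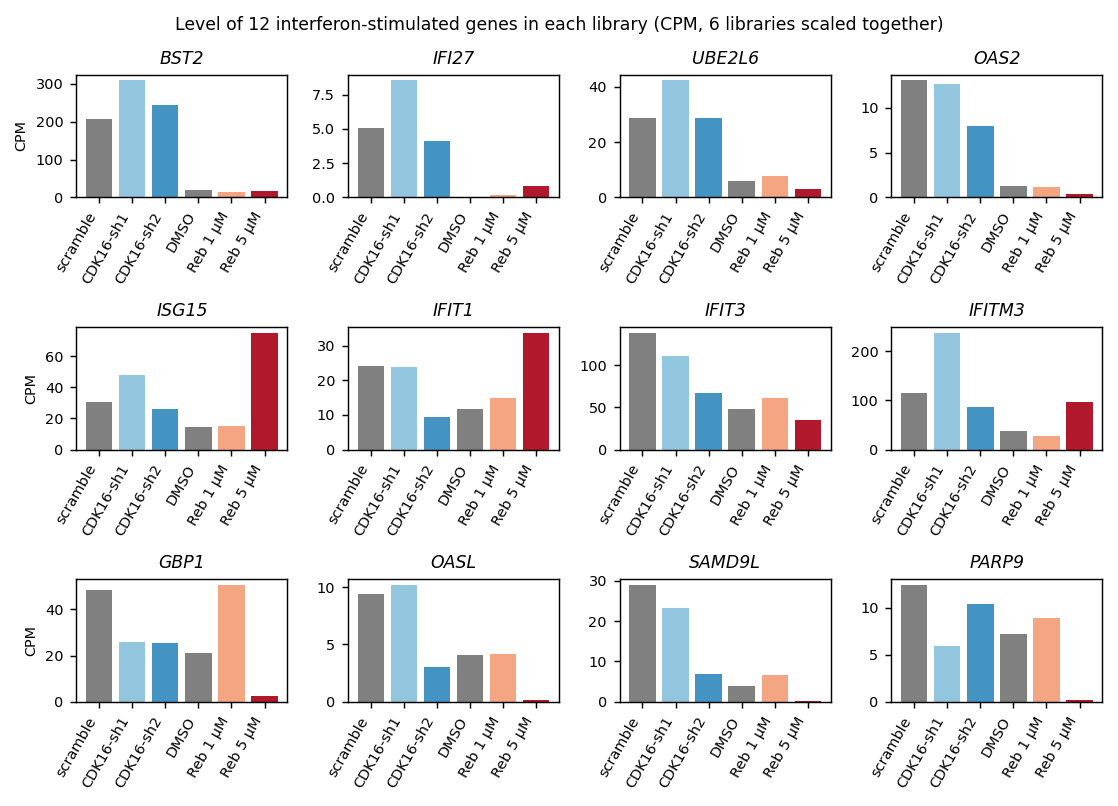
Level in CPM (vertical axis, from 0, the 6 libraries scaled together) of 12 members in each library, grey for the controls scramble and DMSO, blue for the hairpins and orange and red for 1 μM and 5 μM Reb. BST2, IFI27, UBE2L6 and OAS2 are high in the 3 knockdown libraries, ISG15 and IFIT1 are highest at 5 μM, and GBP1, OASL, SAMD9L and PARP9 are near 0 at 5 μM.

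Within some of the comparisons the fold changes of the members were ordered in part by the length and base composition of the genes. At 5 μM Reb the rank correlation of the log2 fold change with exonic length was −0.431 over the 39 members and −0.0896 over all genes, and with the GC content of the longest transcript it was 0.413 over the members and −0.243 over all genes. In CDK16-sh1 the correlations with GC content were 0.681 over 43 members and 0.504 over all genes, and with length −0.534 and −0.299. At 1 μM Reb that with GC content was −0.634 over the members and −0.366 over all genes. In CDK16-sh2 the correlations over the members were smaller, 0.189 with GC content and −0.221 with length (0.151 and −0.143 over all genes). For DMSO against scramble they were −0.132 and 0.324 over the members, and −0.0339 and 0.131 over all genes. Genes of 1 library share its depth and base composition and are not independent, and the GC content was known for 84.3% to 84.6% of all genes.

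The 6 members with exons of under 1600 bases in all, ISG15, IFI6, IFITM1, IFITM2, IFITM3 and BST2, were all above scramble in CDK16-sh1, with a median log2 fold change of 0.85, against 0.25 for all genes of that length. At 5 μM Reb 5 of the 6 were above DMSO by TMM, with a median of 0.66, against 0.27 for all such genes. The longer members had medians of −0.24 in CDK16-sh1 and −1.66 at 5 μM, against −0.04 and −0.12 for all longer genes. In CDK16-sh2 and at 1 μM Reb the short members were lower, both with a median of −0.40, against 0.07 and −0.04 for all such genes. The longer members had medians of −0.55 and 0.08 there, against 0.01 and 0.01 for all longer genes. For DMSO against scramble the short and the long members were both lower, with medians of −1.33 and −1.06, against −0.10 and 0.02 for all genes of these lengths. The part of length and base composition in the differences between genes was not tested.

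**Figure D5:**
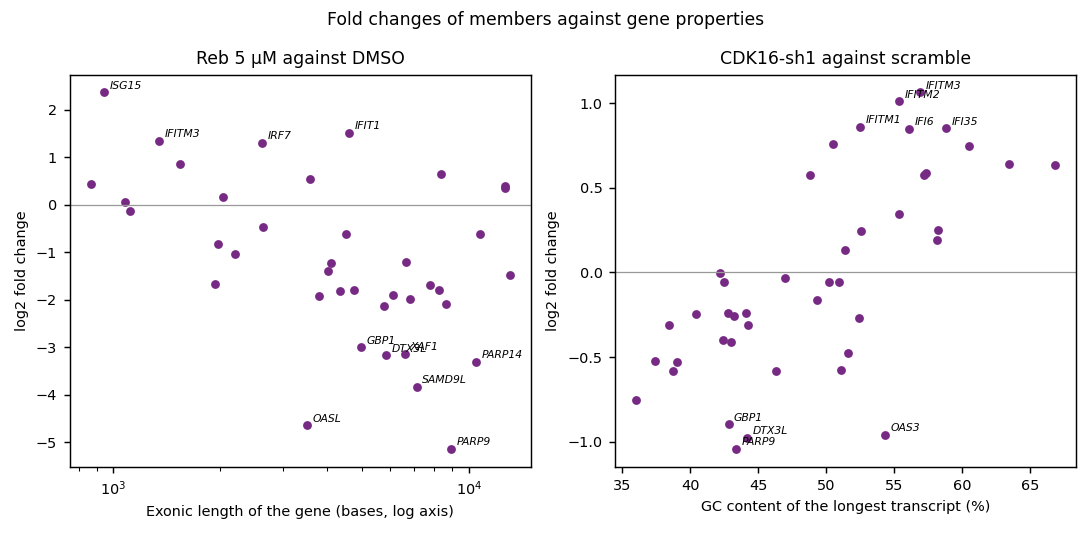
Log2 fold change of each member at 5 μM Reb against the exonic length of the gene in bases (left, log axis) and in CDK16-sh1 against the GC content of its longest transcript in percent (right), 1 point per member. Short genes such as ISG15 and IFITM3 lie at the top on the left, and members of high GC content such as IFITM3 and IFI35 lie above 0 on the right.

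Genes upstream of the members were read from lists of the pathway. Of 9 interferon genes, 7 were in the knockdown table and 1, IFNG, in the Reb table, and none had more than 2 counts in any library. Of 9 receptor and kinase genes, 8 were tested in the knockdown experiment. In CDK16-sh2 1 was at least 2-fold higher and 0 lower (2.2% and 7.62% of all genes). In CDK16-sh1 the numbers were 0 and 0 (4.33% and 6.86% of all genes). All 9 were tested with Reb, with 0 and 0 past 2-fold at 1 μM (1.28% and 1.92% of all genes). The gene past 2-fold in CDK16-sh2 (2.2% of all genes) was IFNAR2, with 129, 167 and 265 counts and a log2 fold change of 1.13 (interval 0.84 to 1.46).

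At 5 μM Reb, 2 of these 9 genes were at least 2-fold higher and 3 lower, where 23.6% and 27.2% of all genes were, so these counts are near the share over all genes. IFNGR1, the receptor of interferon-gamma, had 885, 1283 and 3165 counts, with 2.94 (interval 2.84 to 3.06), and the kinase JAK1 had 1.26 (interval 1.19 to 1.32). In RPKM, scaled by library total, JAK1 was under 2-fold, at 11.9 with DMSO and 17.6 at 5 μM. IFNGR1 stayed past 2-fold in RPKM, at 6.84 and 32.7. Lower were IFNLR1 and IL10RB, which form the receptor of type III interferons, at −3.68 and −2.13, and the kinase TYK2 at −1.16 (interval −1.28 to −1.04). Of 12 tested sensors and adaptors, 0 were at least 2-fold higher and 5 lower, beside the same 23.6% and 27.2% of all genes. MAVS, the mitochondrial adaptor through which DDX58 and IFIH1 signal, had 4746, 3586 and 101 counts, with −4.43 (interval −4.75 to −4.16), and the kinase IKBKE had 2585, 1440 and 84 counts, with −3.82 (interval −4.17 to −3.52). IRF3, which MAVS signalling activates, had −0.81 (interval −0.92 to −0.70).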

How the data were processed

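Libraries of 6 MDA-MB-231 samples were made with a stranded mRNA kit and sequenced on an Illumina instrument. The submitters' processing notes name Trimmomatic, featureCounts and Subread 1.5.1 with GRCh38; the aligner, the annotation and the strand setting of the counting are not given in the sources used here. The deposited counts are whole reads per gene symbol, not normalized, and the authors' RPKM are the same counts divided by exonic length and library total. Counts were analysed in R 4.3.3 with edgeR 4.0.16 (TMM factors from genes averaging at least 1 CPM by library totals, prior count of 2, and the same limit for fold changes), DESeq2 1.42.0 and Python 3.11.15. DMSO and scramble were compared after scaling the 6 libraries together over the 32654 symbols of both tables. The 47 members and the lists of other genes were chosen with earlier results of these data known. From those lists 2 genes were left out and are not reported here, and of the rest only some are named. Every member is reported by role. Values per library were planned for members averaging at least 5 CPM and past 2-fold, up to 8 per comparison by size, and for the 5 with the highest RPKM in the controls; further values were named after they had been seen. Total counts of 25838443 to 50303269 set the counting error, and, with no molecular identifiers, reads may be copies of 1 molecule. The floor was 3 counts. The scripts were tested on simulated counts. Alternatives were DESeq2 size factors, library totals, no filter, a mean of at least 5 CPM, a prior count of 0.5, RPKM with 0.1 added, a 1.5-fold threshold, removal of loess trends on mean expression and gene length and, chosen after seeing the data, on GC content and gene length. Promoter sequences are from RefSeq (GRCh38.p14).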

Additional observations from a re-analysis of the deposited data

How the results depend on the processing

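No paired analysis was possible because each condition had 1 library and the labels give no replicate numbers; for the same reason no replicate could be left out. With DESeq2 size factors and a prior count of 0.5 every median over the members kept its direction and every count stayed within 1.5 times its value. At the 1.5-fold limit, by RPKM, with other filters or with trends removed, shares of all genes were not counted. A 1.5-fold limit lets more genes past by definition. In CDK16-sh1, members at least 2-fold higher and lower numbered 2 and 1 (4.33% and 6.86% of all genes). By library totals they numbered 1 and 2 (3.86% and 7.36% of all genes), by RPKM 1 and 0, and at 1.5-fold 10 and 5. With the trend on mean expression and gene length removed they numbered 1 and 0. The member median was then 0.0125, the reverse sign, against 0.0345 for all genes. With the trend on GC content and length removed (chosen after seeing the data) the members numbered 0 and 0. In CDK16-sh2 the 9 lower members (7.62% of all genes) became 15 by totals (11.1% of all genes) and 18 at 1.5-fold. At 1 μM Reb the 1 higher member became 4 without a filter and 2 at 1.5-fold, and the 1 lower member became 0 at a mean of 5 CPM, 0 with the GC trend removed and 3 at 1.5-fold. At 5 μM the median was −1.91 by totals and −1.86 by RPKM, against −0.75 and −0.71 for all genes. The 4 higher members (23.6% of all genes) became 1 under both (11.7% of all genes by totals). The settings for the treated libraries of 1 experiment against each other were also added later. CDK16-sh2 was at least 2-fold below CDK16-sh1 in 14 members, in 9 with the GC trend removed and in 22 at 1.5-fold, where 2 were higher. For 5 μM against 1 μM the median was −2.02 by totals and −1.99 by RPKM, against −0.81 and −0.75 for all genes. The 5 higher members (22.8% of all genes) became 3 by totals (10.3% of all genes), 3 by RPKM and 8 at 1.5-fold. With dose as a linear term 7 members were called, against 0. The cause of these shifts was not tested. RPKM was not used for DMSO against scramble, whose tables were made separately. Depth limits OASL and PARP9 at 5 μM and IFI27 with DMSO, each at 3 or 4 counts.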

Other observations

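A list of 26 further interferon-stimulated genes, of which 22 were tested in the Reb experiment, gave 13 at least 2-fold lower and 0 higher at 5 μM, with a median of −1.22 on the log2 scale, where 27.2% of all genes were lower and 23.6% higher and their median was −0.07. IFI16 of this list was also counted among the sensors. SP110, a nuclear body gene related to SP100, had 1077, 1140 and 78 counts with DMSO, 1 μM and 5 μM Reb, and a log2 fold change of −2.66 (interval −3.03 to −2.35) at 5 μM. The helicase gene HELZ2 was at 29.7 CPM with DMSO, 22.2 at 1 μM and 4.33 at 5 μM, with −2.77 (interval −3.06 to −2.51), and the RNA sensor DDX60 had 284, 179 and 12 counts, with −3.34 (interval −4.43 to −2.63). TRIM22, a restriction factor, had 45, 109 and 0 counts, so that it was at 0 in the 5 μM library only. In the knockdown experiment 24 of the list were tested, with 6 at least 2-fold lower and 1 higher in CDK16-sh1 (6.86% and 4.33% of all genes) and 3 lower and 0 higher in CDK16-sh2 (7.62% and 2.2% of all genes). TRIM22 (−1.18 and −1.07), DDX60 (−1.69 and −1.43) and its paralog DDX60L (−1.35 and −1.28) were lower with both hairpins. SLFN5 was lower in CDK16-sh1, at −2.25 (interval −2.58 to −1.97), and near scramble in CDK16-sh2, at 0.03 (interval −0.16 to 0.23). For DMSO against scramble 24 of the list were tested, with 6 at least 2-fold lower and 1 higher (12.3% and 13.1% of all genes). Their median log2 ratio was −0.57, against −1.09 for the members.

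Genes that lean towards interferon-gamma gave 5 at least 2-fold lower and 0 higher of 9 tested at 5 μM Reb, beside 27.2% and 23.6% of all genes, with a median of −1.59. The guanylate-binding protein genes GBP2 and GBP3 had 1345, 1724 and 30 counts and 4356, 5429 and 260 counts, with −4.33 (interval −4.95 to −3.86) and −2.95 (interval −3.14 to −2.78), and CIITA, the regulator of class II antigen presentation, had −2.39 (interval −3.28 to −1.75). For DMSO against scramble 3 of 9 tested were at least 2-fold lower and 1 higher (12.3% and 13.1% of all genes), with a median of −0.30. CIITA was at −1.87 (interval −2.13 to −1.64) there, and GBP5 at 3.81 (interval 3.13 to 5.01). GBP5 had 11, 3 and 3 counts in the knockdown and 316, 298 and 48 counts in the Reb libraries. Of 6 tested negative regulators, 1 was at least 2-fold higher and 2 lower at 5 μM, near the 23.6% and 27.2% of all genes. These were the phosphatase gene PTPN1 at 1.30 (interval 1.26 to 1.35), SOCS3 at −1.11 (interval −1.33 to −0.91) and PTPN6 at −1.89 (interval −2.60 to −1.33). In RPKM, scaled by library total, PTPN1 was under 2-fold, at 41.9 with DMSO and 64.2 at 5 μM. SOCS1, an inhibitor of the JAK kinases, was lower in CDK16-sh2, with 91, 116 and 27 counts and −1.58 (interval −2.32 to −1.01).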
